A study of Bos taurus and Bos indicus with 3 samples.

Results

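Unnamed gene models are stretches of the genome that the transcript assembly reported without matching them to an annotated gene. The 1415 models described here had no gene name, lay outside the mitochondrial genome, had a value in all 3 libraries, and had an abundance above 0 in exactly 1 of them. They came from 5727 unnamed models that met the first 3 conditions, in a table of 25968 models. Holstein alone had 264 of them, Jersey alone had 386 and Cholistani alone had 765. The models were thus chosen by the deposited abundances themselves, in FPKM, a level scaled to transcript length and to the size of the library, so their presence in 1 library is the selection rule and not a result.

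The libraries were made from poly A+ RNA of white blood cells, pooled from 40 Holstein, 7 Jersey and 45 Cholistani cows. Holstein and Jersey are taurine (Bos taurus) dairy breeds sampled at 2 research herds in Wisconsin, and Cholistani is an indicine (Bos indicus) breed sampled on a farm in Pakistan. In all 3 groups blood was taken from the tail vein, pooled in equal volumes, and cleared of red cells with lysis buffer. Cholistani RNA alone was shipped in a dry storage matrix, and the cows' ages are not given in the sources used here. Each breed is 1 library, so breed cannot be told apart from herd, country, RNA transport or library, and no difference below has a replicate check.

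Transcript assemblers join overlapping aligned fragments into models, and a model can be a whole gene, part of a gene missing from the annotation, or unspliced RNA copied from an intron or from sequence downstream of a gene. A model with no intron carries no splice signal that would show its strand in a library without strand marking. Cufflinks, the assembler used here, by default reports a new transcript only where a minimum number of fragments supports it.

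Defining genes of white blood cells were above 0 in all 3 libraries. The T cell genes CD3D, CD3E and CD3G, the B cell gene CD79A, the monocyte gene CD14 and the neutrophil genes CSF3R and CXCR2 were above 0 throughout, and the red cell gene AHSP, the liver gene APOA1 and the heart gene MYH7 were listed at 0 throughout. Marker levels moved with the library. CXCR2, a chemokine receptor of neutrophils, had 33.5 FPKM in the Holstein library, 7.62 in Jersey and 598 in Cholistani, and the platelet tubulin gene TUBB1 had 4430, 2997 and 551. The other platelet marker found, of 5 listed, moved the opposite way, since GP9 had 84.5, 104 and 190 FPKM. The order of platelet content can therefore not be read from these genes. In bulk samples, fewer cells of a type and less RNA per cell cannot be told apart, and the part of this mix in the results below was not tested. The FPKM of all models summed to 5949765 in the Holstein library, 6288105 in Jersey and 9525773 in Cholistani, while models above 0 numbered 13409, 13783 and 13666.

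Being above 0 in 1 library was more frequent among unnamed models than among named ones. Of 3731 unnamed models above 0 in any library, 37.9% were above 0 in exactly 1 library, against 4.34% of 11551 named models and 12.5% of all 15284 models. The 1415 models made up 11.0% of the unnamed models above 0 in the Holstein library, 14.7% in Jersey and 28.1% in Cholistani. In the whole table, 2.45% of the models above 0 were above 0 in Holstein only, 3.66% in Jersey only and 6.42% in Cholistani only, so the Cholistani library also held the largest share of all models found once. The remaining unnamed models were 1709 above 0 in all 3 libraries, 1996 at 0 in all of them and 607 above 0 in 2 libraries. Holstein and Jersey shared 356 of those 607, Jersey and Cholistani 177, and Holstein and Cholistani 74.

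The models of 1 library were nearly all listed in a separate block of the table. On each chromosome the table runs through the positions 3 times in ascending order, and the third block, of 2791 models, contains no named gene and is called the nameless block here. What the blocks stand for is not stated in the sources used here. The nameless block held 1256 of the 1415 models, or 88.8%. Within it, 49.2% of the 2553 unnamed models above 0 belonged to 1 library, against 13.5% of the 1178 unnamed models above 0 in the first and second blocks. Of the unnamed models above 0 in all 3 libraries, 815 lay in the nameless block and 894 in the others.

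**Figure D1:**
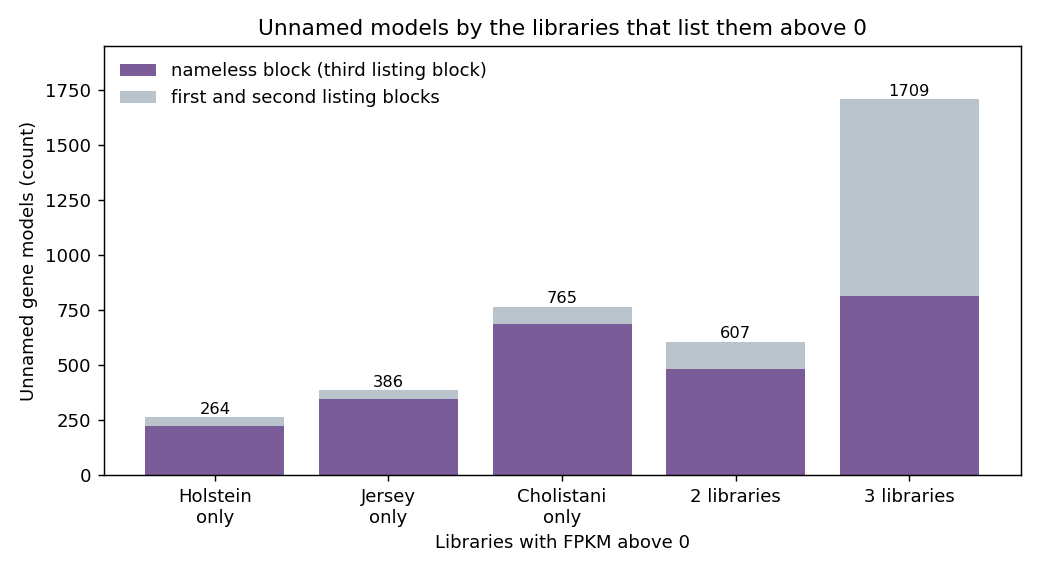
Number of unnamed gene models (bars, counts from 0) by the libraries in which they were above 0, split by listing block; no error bars are drawn because each bar is a count. The nameless block (purple) holds 223 of 264 Holstein-only, 344 of 386 Jersey-only and 689 of 765 Cholistani-only models, but 815 of 1709 models above 0 in all 3 libraries.

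Most of these models were short. Spans below are the listed positions on the btau4.0 assembly; models that overlap are listed with 1 common span, so lengths are given for models alone in their span. Those numbered 232 in the Holstein library, 344 in Jersey and 710 in Cholistani, with median spans of 630, 622.5 and 793.5 bp. In the nameless block the median was 568 bp for Holstein, 604 bp for Jersey and 756 bp for Cholistani, and the longest was a Cholistani model of 4598 bp. In the first and second blocks the models were longer, with medians of 2857, 1426 and 2869 bp. Over the nameless block, 584 models (50.7%) spanned more than 500 and up to 1000 bp, 31 spanned 100 bp or less, and the 18 that spanned more than 2000 bp were all Cholistani models.

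FPKM fell steeply with span. The 31 models of the nameless block of 100 bp or less had a median of 766 FPKM, the 168 of more than 300 and up to 500 bp had 25.2 FPKM, and the 203 of more than 1000 and up to 2000 bp had 11.3 FPKM. Across models, Spearman's rho of span with FPKM was -0.89 in Holstein (n = 197), -0.89 in Jersey (n = 312) and -0.70 in Cholistani (n = 643). Span is also the divisor of FPKM, so both axes share it. The same rho over 734 unnamed models above 0 in all 3 libraries was -0.29, -0.32 and -0.45.

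**Figure D2:**
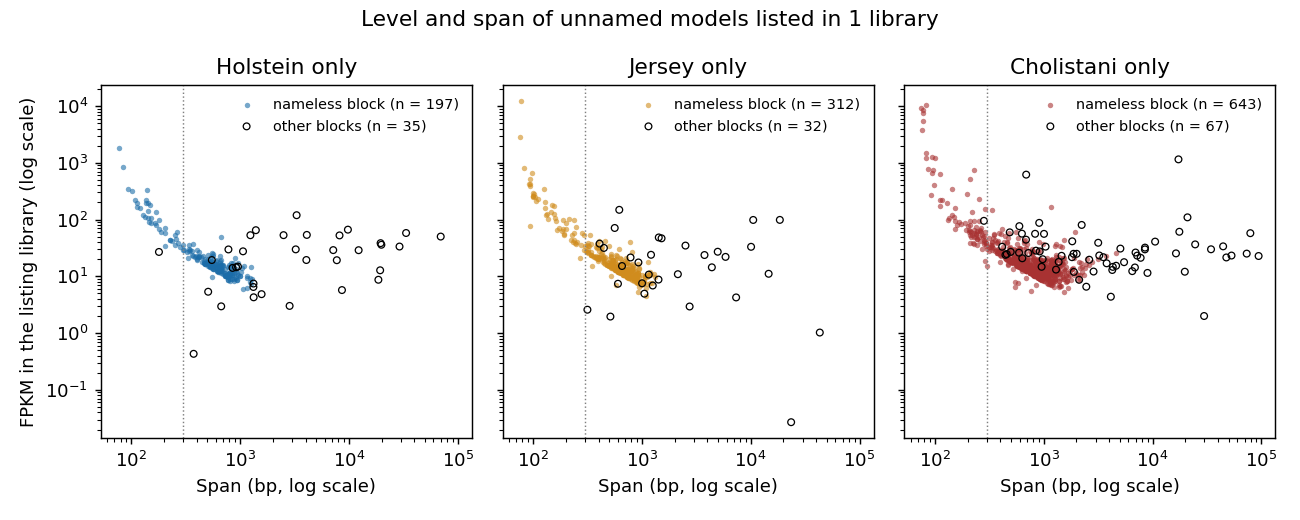
FPKM against span in bp (both log scales) for models alone in their listed span, 1 panel per library; each point is 1 model, filled for the nameless block and open for the other blocks, and the dotted line marks 300 bp. Filled points fall along a narrow curve (Spearman's rho -0.89, -0.89 and -0.70), while open points scatter above it at long spans.

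The narrow curve allowed the number of fragments behind each short model to be recovered. In the 734 models of the nameless block above 0 in all 3 libraries and alone in their span, FPKM multiplied by the span less 74 bp, that is by the number of positions at which a 75 bp read can start, mostly fell on whole multiples of 1 step per library. That step, taken as 1 fragment, was 0.6716 FPKM × kb in the Holstein library, 0.6449 in Jersey and 0.7665 in Cholistani, with 80.1% of 427, 79.4% of 433 and 83.7% of 417 fitted values within 0.05 of a whole number. Applied to the models of 1 library, which had not entered the fit, the same steps gave whole numbers within 0.05 for 185 of 197 Holstein models (93.9%), 288 of 312 Jersey models (92.3%) and 601 of 643 Cholistani models (93.5%).

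The models of 1 library rested on few fragments. The median was 12 fragments in the Holstein library, 12 in Jersey and 13 in Cholistani, against 40, 41 and 33 in the same libraries for models of the nameless block above 0 in all 3. A count of 12 has an exact 95% Poisson interval of 6.20 to 21.0, and one of 13 an interval of 6.92 to 22.2, which cover counting error only. From 10 to 12 fragments lay behind 59.4% of the Holstein, 53.8% of the Jersey and 40.1% of the Cholistani models. The counts began sharply at 10, a number found for 51 Holstein, 82 Jersey and 101 Cholistani models, and only 4.57%, 3.85% and 4.51% rested on fewer.

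A listed 0 therefore need not mean that no fragment was sequenced. Among unnamed models above 0 in all 3 libraries, where low counts in 1 library would have been seen, 5 of 734 Holstein values, 7 Jersey values and 6 Cholistani values were under 10 fragments (0.681%, 0.954% and 0.817%). Values from 1 to 9 fragments were thus almost absent among these models in every library, and how many of the zeros hold such fragments was not tested. Since some values under 10 were listed above 0, this level is not a strict limit. A model listed at 0 in a library may still have had some fragments there. The exact 95% Poisson lower limit exceeded 9 fragments for 31 Holstein (15.7%), 59 Jersey (18.9%) and 243 Cholistani models (37.8%). These limits, here and below, describe models selected by the same values. They do not test the zeros listed in the other libraries.

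At higher counts the Cholistani library held most of the models. Of the 187 models of the nameless block alone in their span with at least 20 fragments, 155 (82.9%) were Cholistani models, 20 (10.7%) Jersey models and 12 (6.42%) Holstein models. These were 24.1% of the Cholistani, 6.41% of the Jersey and 6.09% of the Holstein models of the nameless block alone in their span. The paper reports more mapped fragments for the Cholistani library than for either taurine library. A fixed number of fragments is therefore not an equal cut in each library, and the part of depth was not tested.

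**Figure D3:**
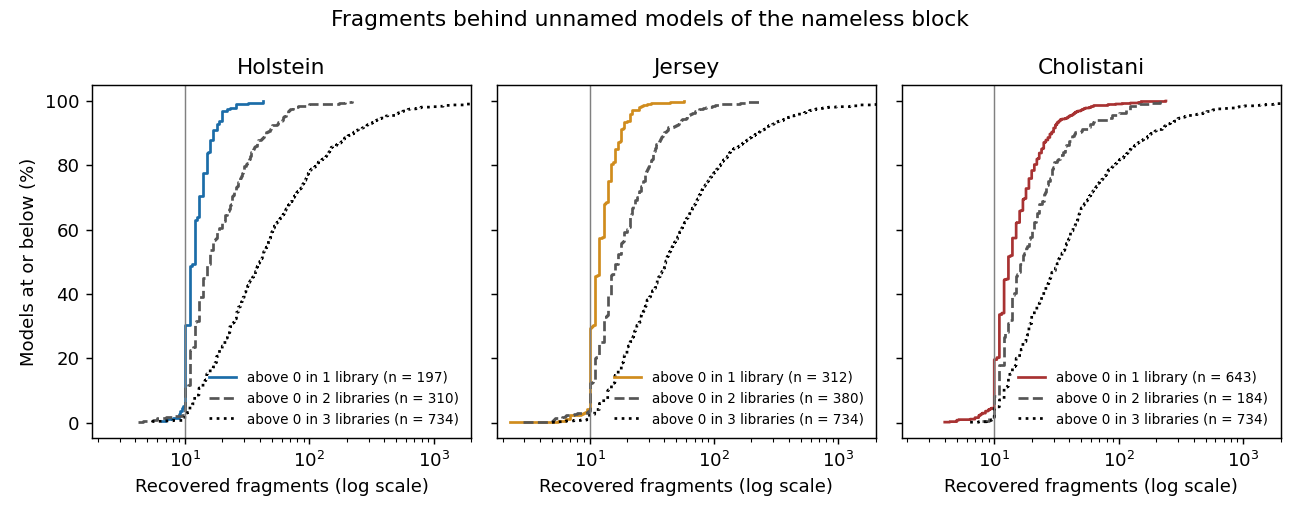
Cumulative percentage of unnamed models of the nameless block alone in their span against recovered fragments (log scale), 1 panel per library, for models above 0 in 1 library (solid), 2 libraries (dashed) and 3 libraries (dotted); the grey line marks 10 fragments. The solid curves rise sharply at 10 fragments with medians of 12, 12 and 13, and the dotted curves have medians of 40, 41 and 33.

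The highest FPKM values belonged to models barely longer than a read. The Jersey model XLOC_025644, on chr14:5662914-5662990, spanned 77 bp and reached 12252 FPKM in Jersey, with 0 listed in Holstein and in Cholistani. That value stood for 57 fragments (exact 95% interval 43.2 to 73.9). The Cholistani model XLOC_007255, on chr4:124453612-124453694, spanned 83 bp, was listed at 10561 FPKM in Cholistani and at 0 in the other libraries, and rested on 124 fragments. XLOC_022067, on chr9:64724502-64724576, had the length of 1 read, 75 bp, so that 12 fragments gave 9198 FPKM in Cholistani. The highest Holstein value, 1847 FPKM for XLOC_010755 on chr18:40406332-40406409 (78 bp), likewise rested on 11 fragments. Rank by FPKM among the short models was in these cases not a rank by fragments.

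Ranked by fragments, the order differed from that by FPKM in all 3 libraries, though in Jersey the first model was the same. The Cholistani model XLOC_025098, of 1174 bp on chr16:71804047-71805220, had 240 fragments (210.6 to 272.4) at 167 FPKM, with no named model closer than 27280 bp. XLOC_025640, of 4598 bp on chr14:2364602-2369199, had 152 fragments and lay 3821 bp from AGO2, which encodes a protein of the small RNA silencing complex and had 57.8 FPKM in the Holstein library, 48.0 in Jersey and 48.6 in Cholistani. Jersey was led by XLOC_025644, described above, and by XLOC_010780, of 772 bp on chr18:49842734-49843505, with 44 fragments. In Holstein, XLOC_012030, of 663 bp on chr10:78868145-78868807, had a recovered value of 42.8, which is not a whole number. The next Holstein values were 32.5 for XLOC_006155 and 26 for XLOC_000416. The Holstein maximum was thus lower than the leading counts of either other library. XLOC_000416 lay 3760 bp from NIPBL, whose product loads cohesin onto chromosomes.

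A few models of 1 library were both long and abundant. Among models alone in their span, those longer than 2000 bp with 50 FPKM or more all lay in the first and second blocks. XLOC_024176, on chr21:34950919-34968222, spanned 17304 bp and had 1149 FPKM in Cholistani, with 0 listed in Holstein and Jersey. It lay between 2 serine protease genes of immune cell granules. CTSG, which encodes cathepsin G of neutrophils, was 7098 bp away and was listed at 0 in all 3 libraries. GZMB, which encodes granzyme B of cytotoxic lymphocytes, was 15131 bp away with 42.3 FPKM in the Holstein library, 52.3 in Jersey and 436 in Cholistani. XLOC_014490, of 20937 bp on chr5:108884318-108905254, had 109 FPKM in Cholistani and lay 19245 bp from the model named GTR3, a glucose transporter, with 732, 665 and 1602 FPKM. GZMB and GTR3 were both highest in the Cholistani library, but so were 51.7% of all named models above 0. Both lay more than 10 kb from the unnamed models. On the other side of XLOC_014490, 29030 bp away, FOXJ2 had 106 FPKM in the Holstein library, 110 in Jersey and 93.8 in Cholistani.

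Holstein and Jersey also had abundant models in the first and second blocks. In Holstein, XLOC_016097, of 3314 bp on chr19:23744719-23748032, had 119 FPKM, and XLOC_019754, of 9811 bp on chr3:18285962-18295772, had 66.4 FPKM. The latter lay 3486 bp from the gene of the S100 calcium-binding protein S100A7, listed as S10A7, with 30.0 FPKM in the Holstein library, 41.0 in Jersey and 88.0 in Cholistani. This neighbour was lowest in the library that held the unnamed model. In Jersey, XLOC_024167, of 620 bp on chr21:34255963-34256582, had 148 FPKM, and XLOC_021877, of 18531 bp on chr9:64139322-64157852, had 98.6 FPKM. The latter lay 2808 bp from the gene of the replication origin protein ORC3, with 40.0 FPKM in the Holstein library, 50.9 in Jersey and 61.2 in Cholistani. Fragments could not be recovered for these models, since their exons are not listed.

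Few models of 1 library shared their listed span with another model. This was so for 32 Holstein (12.1%), 42 Jersey (10.9%) and 55 Cholistani models (7.19%), against 16.1% of the unnamed models above 0 in all 3 libraries. The 16.1% covers all listing blocks. Within the nameless block, 734 of 815 unnamed models above 0 in all 3 libraries were alone in their span. So were 197 of 223 Holstein, 312 of 344 Jersey and 643 of 689 Cholistani models, close to that share for both taurine breeds. Over all blocks, a model above 0 in another library stood in the same span for 32 Holstein (12.1%), 39 Jersey (10.1%) and 54 Cholistani models (7.06%). A named gene did so for 24, 35 and 44. Where models share a span, the extent of each is not listed and the listed positions are those of the whole group. XLOC_013959 stood in the span of ABCC4, a transporter of cyclic nucleotides and drugs, on chr12:68775693-69259464 and had 745 FPKM in Cholistani. ABCC4 itself had 428 FPKM in the Holstein library, 531 in Jersey and 198 in Cholistani, so the named gene was lowest where the unnamed model was listed. XLOC_004762, in the span of the phosphate transporter gene SLC20A1 on chr11:47905096-48071096, had 323 FPKM in Holstein, where SLC20A1 had 367 FPKM against 353 in Jersey and 549 in Cholistani.

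More than 50% of the models of 1 library lay within 10 kb of a named gene. The median distance to the nearest named model was 5223 bp in the Holstein library, 5596 bp in Jersey and 9215 bp in Cholistani, counting a shared span as 0. Within 10 kb lay 61.7% of the Holstein, 64.0% of the Jersey and 52.0% of the Cholistani models. Of the unnamed models above 0 in all 3 libraries 55.6% did, and of those in the nameless block 66.7%. In the nameless block alone the shares of the models of 1 library were 65.9%, 64.8% and 52.5%, so the Cholistani models lay farther from named genes than the other groups. Conversely, 64 Holstein (24.2%), 84 Jersey (21.8%) and 232 Cholistani models (30.3%) had no other model of any kind within 10 kb.

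**Figure D4:**
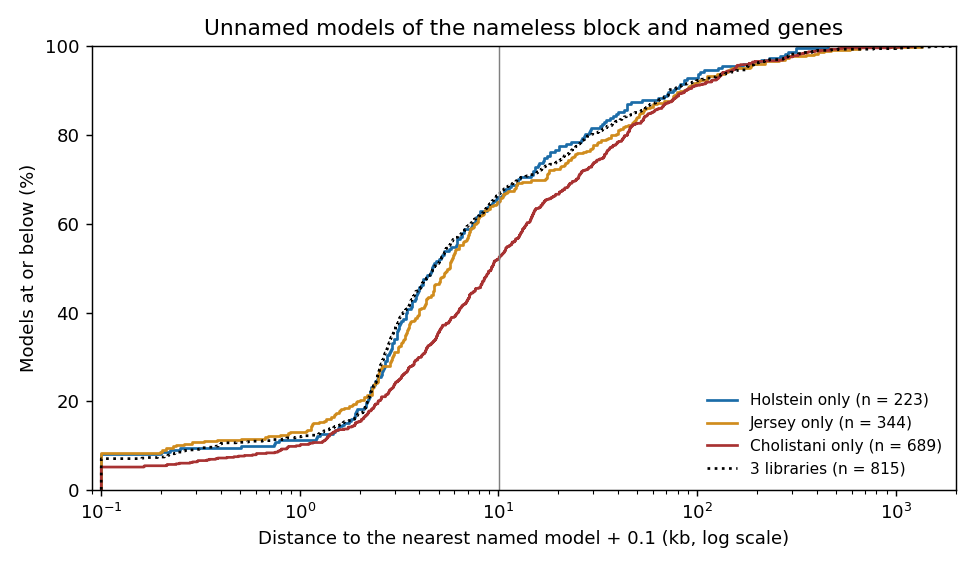
Cumulative percentage of unnamed models of the nameless block against the distance to the nearest named model (kb, log scale, with 0.1 kb added so that shared spans can be drawn); the grey line marks 10 kb. The Holstein and Jersey curves run close to that of models above 0 in all 3 libraries (65.9%, 64.8% and 66.7% within 10 kb), and the Cholistani curve runs below them (52.5%).

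The named neighbours within 10 kb were mostly expressed. They were above 0 in at least 1 library for 90.8% of 163 Holstein, 90.7% of 247 Jersey and 86.9% of 398 Cholistani models, against 57.1% of all 20202 named models. The median FPKM of the neighbours above 0 was 94.3 in the Holstein library, 129 in Jersey and 216 in Cholistani, each in the library of its models. The medians over all named models above 0 were 102, 104 and 110. The neighbours of Cholistani models also exceeded those medians elsewhere, with 178 FPKM for Holstein and 184 for Jersey.

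Neighbours of Cholistani models were more often higher in the Cholistani library than named genes at large. A neighbour was counted where its FPKM + 1 was at least 2-fold higher in the library of the unnamed model than in each of the others. This held for 56 of 398 Cholistani models (14.1%), against 5.76% of all named models, 10.1% of named models above 0 and 7.26% of the neighbours of unnamed models found in all 3 libraries. Among neighbours above 0, the share beside Cholistani models was 16.2%. A gene with several models beside it enters these shares more than once. Counted once each, 42 of 356 neighbour genes (11.8%) were higher, or 13.7% of the 306 above 0, closer to the 5.76% and 10.1% of named models, which count each gene once. For Holstein it held for 2 of 163 (1.23%), with 0.817% of all named models, 1.43% of those above 0 and 1.16% of the neighbours of unnamed models found in all 3 libraries. For Jersey it held for 3 of 247 (1.21%), with 1.27%, 2.23% and 1.05%, so the shares of both taurine breeds were near their backgrounds. Rescaling each library to the same FPKM sum lowered the Cholistani share to 6.53% and that of all named models to 2.26%. Among the Cholistani models with at least 20 fragments, 15 of the 80 neighbours (18.8%) were counted. Within 1 kb of a Cholistani model the share was 5.95%, near the 5.76% of all named models. Of the 84 models within 1 kb, 44 shared the span of a named model. The 7.26% applies within 10 kb, and no such share was computed within 1 kb. Of the 42 genes, 10 had 2 or more such models. Counting every Cholistani-only model within 10 kb of a gene, 24 of 71 higher genes had 2 or more, against 117 of 630 named models in all.

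Seen from the genes, 71 of the 1163 named models counted as higher in Cholistani (6.10%) had a Cholistani-only unnamed model within 10 kb. The share was 2.56% for the 819 that were lower by the same measure, 4.11% for the 9559 others above 0 and 1.67% for the 8661 at 0 in all libraries. For Holstein the shares were 1.21% of 165 higher models, which is 2 genes, 1.23% of 244 lower, 1.84% of 11132 others above 0 and 0.531% at 0. For Jersey they were 3.50% of 257 higher, 3.36% of 119 lower, 2.52% of 11165 others and 0.877% at 0, so higher and lower genes had nearly equal shares.

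Immediate early genes, which are switched on within minutes of cell stimulation, were the listed group with the most Cholistani-only models beside them. Of 143 gene symbols in 6 lists, 73 were found by name. Among 20 immediate early genes found, 6 (30.0%) had at least 1 Cholistani-only unnamed model within 10 kb, 10 models in all. The share was 3.12% over all named models, including those at 0 in all libraries. It was 6.10% over the named models counted as higher in Cholistani. Of the 19 immediate early genes above 0, 15 (78.9%) were counted as higher by that measure. The lists were chosen with earlier results of these data known. The 6 genes with such a model were JUNB, EGR1, NR4A3, DUSP2, ZFP36 and SNAI1. Of 18 inflammatory genes found, 0 had one. The other lists had 1 of 12 interferon-stimulated genes, 1 of 11 leukocyte markers, 2 of 8 platelet and red cell genes and 1 of 4 genes of MHC class I and the immunoproteasome. In all, 11 listed genes had 19 Cholistani-only models beside them, 1 listed gene had a Holstein-only model and 1 a Jersey-only model.

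ZFP36, whose product speeds the decay of cytokine mRNAs, had 3 Cholistani-only models in a row on its lower-coordinate side on chr18. ZFP36 itself had 1053 FPKM in the Holstein library, 1138 in Jersey and 5468 in Cholistani. XLOC_010774 (1383 bp, 3629 bp away) had 33 fragments, XLOC_010775 (1376 bp, 2127 bp away) had 37, and XLOC_010776 (571 bp, 1314 bp away) had 10. All 3 were listed at 0 in both taurine libraries, and the exact 95% intervals of the first 2 began at 22.7 and 26.1 fragments, above the 10-fragment level.

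JUNB and EGR1 encode transcription factors of the early response. JUNB had 1024 FPKM in the Holstein library, 1469 in Jersey and 9367 in Cholistani, and XLOC_006143 lay 1435 bp away with 24 fragments over 2157 bp. EGR1 had 23.3, 41.6 and 885 FPKM, and the Cholistani-only XLOC_006199 lay 2102 bp away with 10 fragments. On the other side of EGR1, 3797 bp away, the Jersey-only XLOC_006198 (15.5 FPKM) shared its span with the unnamed XLOC_005939, which was above 0 in all 3 libraries at 38.3, 37.6 and 48.3 FPKM. The Jersey-only listing there was thus not a region silent in the other libraries.

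DUSP2, a phosphatase of MAP kinases, had 315 FPKM in the Holstein library, 305 in Jersey and 4223 in Cholistani, and XLOC_004713 lay 4853 bp away with 25 fragments over 1892 bp. SNAI1, a transcriptional repressor, was listed at 0 in the Holstein library, at 9.48 FPKM in Jersey and at 120 in Cholistani. Beside it were XLOC_009080 (2377 bp away) with 27 fragments and XLOC_009079 (8834 bp away) with 15. NR4A3, an orphan nuclear receptor gene, was listed at 0 in both taurine libraries and at 5.88 FPKM in Cholistani. The unnamed XLOC_008116 and XLOC_008115, 7036 and 9082 bp away, had 15.0 and 11.3 FPKM in Cholistani, from 19 and 13 fragments, which is above the level of NR4A3 itself. All 6 of these genes were highest in the Cholistani library, but so were 11 of the 13 other immediate early genes above 0 and 62 of the 69 listed genes above 0. Among all named models above 0 the share was 51.7%. Being highest in Cholistani was thus not particular to the genes beside these models.

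**Figure D5:**
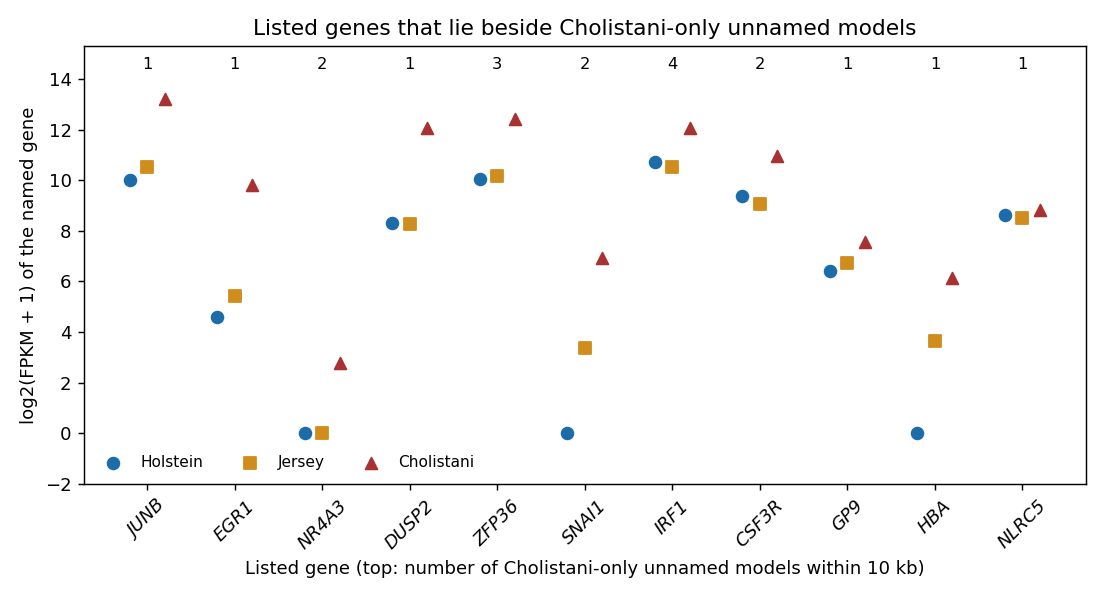
log2(FPKM + 1) of the 11 listed genes that have at least 1 Cholistani-only unnamed model within 10 kb, 1 point per library (circles Holstein, squares Jersey, triangles Cholistani), with the number of such models above each gene. In Cholistani, 9 of the 11 genes stand at least 2-fold above both taurine libraries on the FPKM + 1 scale, and GP9 and NLRC5 do not. By the same measure 43 of all 69 listed genes above 0 do (62.3%). So do 9 of the 13 immediate early genes above 0 without such a model (69.2%).

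Outside the immediate early list, IRF1, a transcription factor of the interferon response, had the most Cholistani-only models. It had 1674 FPKM in the Holstein library, 1464 in Jersey and 4221 in Cholistani. XLOC_006163 lay 1754 bp away on the lower-coordinate side with 51 fragments over 2448 bp. On the other side were XLOC_006164 (1239 bp away, 30 fragments), XLOC_006165 (3049 bp away, 82 fragments) and XLOC_006166 (9011 bp away, 11 fragments). XLOC_006165 spanned 3171 bp, and its interval of 65.2 to 101.8 fragments was far above the 10-fragment level.

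CSF3R, the receptor of the neutrophil growth factor G-CSF, had 657 FPKM in the Holstein library, 532 in Jersey and 1976 in Cholistani, with XLOC_021092 (27.8 FPKM, 31 fragments, 6640 bp away) and XLOC_020202 (28.3 FPKM, 5176 bp away) beside it. HBA, which encodes the alpha chain of haemoglobin, was listed at 0 in the Holstein library, at 11.5 FPKM in Jersey and at 69.3 in Cholistani, with XLOC_023576 (29 fragments) 7250 bp away. CSF3R is also a neutrophil marker, and CXCR2, the neutrophil marker given above, was likewise highest in Cholistani. The platelet gene GP9 had 84.5, 104 and 190 FPKM, with XLOC_012716 (20 fragments) 3744 bp away. Farther out on the same side, 5288 bp from GP9, the unnamed XLOC_012717 was above 0 in all 3 libraries at 366, 481 and 163 FPKM. Beside HBA, XLOC_023575 (5110 bp away) was likewise above 0 in all of them, at 80.1, 103 and 121 FPKM. NLRC5, an activator of MHC class I genes, had 397, 365 and 447 FPKM, with XLOC_010744 (11 fragments) 277 bp away. TUBB1, the platelet tubulin gene, had 4430 FPKM in the Holstein library, 2997 in Jersey and 551 in Cholistani, and the Holstein-only XLOC_008825, at 29.7 FPKM, lay 6650 bp away. Between them, XLOC_008824 was above 0 throughout, at 69.3, 33.2 and 45.4 FPKM. The regions beside these 3 genes were thus not silent in the other libraries.

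Some models of the same library followed each other along a chromosome. Joined where gaps were at most 10 kb, 24 Holstein models (9.09%) formed 11 runs of 2 or more, 67 Jersey models (17.4%) formed 32 runs, and 164 Cholistani models (21.4%) formed 74 runs. The share in runs also depends on how many models a library has, here 264, 386 and 765. No share adjusted for that number was computed, so the libraries cannot be ranked by clustering. Models of 1 run may be pieces of 1 transcript and are not independent of each other.

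The longest run held 5 Cholistani models on chr16:73863660-73883238, a window of 19579 bp. They spanned 941, 1206, 1075, 1037 and 946 bp and had 12, 16, 13, 13 and 15 fragments. The nearest named model, the microRNA gene bta-mir-29b-2, lay 3418 bp from the last of them and was listed at 0 in all 3 libraries. In the same window a sixth unnamed model, XLOC_025102, was listed at 0 in the Holstein library, 24.98 FPKM in Jersey and 10.5 FPKM in Cholistani, so the window was not silent in Jersey.

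A run of 4 Cholistani models on chr19:8521727-8527673 lay between the microRNA gene bta-mir-142, which is expressed in blood cells, and the gene of the transcription elongation factor SPT4, listed as SPT4H. The models XLOC_017244, XLOC_017245, XLOC_017246 and XLOC_017247 had 63, 13, 10 and 26 fragments. The microRNA model was listed at 0 in all 3 libraries, and SPT4H had 475 FPKM in the Holstein library, 522 in Jersey and 1320 in Cholistani. SPT4H was thus highest in the library of the run, but so were 51.7% of all named models above 0. The named model nearest to the third Cholistani run, on chr14, had 757 FPKM in the Holstein library, 764 in Jersey and 826 in Cholistani.

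The longest Holstein run, on chr7:16052264-16060557, was of another kind. Its 4 models, XLOC_006155 to XLOC_006158, spanned 139, 137, 144 and 144 bp and had 336, 192, 192 and 144 FPKM. The last 3 rested on 18, 20 and 15 fragments, and the first had a recovered value of 32.5. They began 4600 bp from EMR1, a receptor gene of myeloid cells, which had 209 FPKM in the Holstein library, 77.9 in Jersey and 233 in Cholistani. EMR1 was thus not highest in Holstein.

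The Jersey runs included 3 models on chr24:44468814-44472765 with 12, 10 and 15 fragments. A further 3 stood in the span of the Fc receptor-like genes on chr3:13778030-14113389, at 29.0, 12.02 and 15.7 FPKM. In that span FCRL3, a receptor of B cells, had 84.7 FPKM in the Holstein library, 118 in Jersey and 34.7 in Cholistani, and FCRL4 had 12.9, 13.2 and 0. Both named receptors had their highest value in Jersey, FCRL4 by a small margin over Holstein. CD5L, a macrophage gene in the same span, was listed at 4.34, 0 and 5.14 FPKM and so at 0 in Jersey.

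Some models of the same library carried the same FPKM to all printed digits. There were 3 repeated values in the Holstein library, 10 in Jersey and 35 in Cholistani, covering 2.27%, 5.18% and 9.67% of the models. The models had equal spans for 1, 8 and 16 of these values, and lay on the same chromosome for 1, 2 and 2. XLOC_006156 and XLOC_006157, of the Holstein run given above, were such a case. Whether models with the same value share sequence was not tested. In Cholistani, 5 models on 5 chromosomes shared 19.7 FPKM with spans of 620, 581, 464, 503 and 932 bp, and their recovered fragments were 14, 13, 10, 11 and 22. The shared value is the same ratio of a small whole number of fragments to the number of start positions.

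The models of 1 library were spread over all 30 chromosomes, at 9.27% of the 15272 models above 0 outside the mitochondrial genome. The share ran from 5.92% on chr25 to 16.2% on chr24, and no chromosome lacked such models.

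At the edge of the rule, the lowest values inside it were 0.0612 FPKM for XLOC_011025 in Holstein, 0.0269 for XLOC_014842 in Jersey and 1.999 for XLOC_003131 in Cholistani. Just outside it, XLOC_003604 had 0.431 FPKM in Holstein and 14.3 in Jersey, XLOC_025819 had 1.24 and 0.820, and XLOC_018223 had 0.451 in Jersey and 0.762 in Cholistani.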

How the data were processed

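Each breed was 1 pooled library. The authors deposited 1 FPKM value per gene model and library, computed by Cufflinks 0.9.3 with upper-quartile normalization and sequence bias correction, after alignment to btau4.0 with TopHat 1.0.14 and Bowtie 0.12.7; assembled transcripts were merged with Ensembl genes. They were used as deposited. Listed starts count from 0, so 1 was added. Of 5754 unnamed models, 24 were mitochondrial and 3 had missing values.

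Models, neighbours and spans were computed in Python 3.11.15 with pandas 2.3.3 and numpy 2.4.6, after tests on simulated tables with known answers. With 1 library per breed no test was run. Distances are between listed spans. Neighbour folds used a pseudocount of 1 FPKM. Fragments were recovered as the largest step of FPKM × (span less an offset) that gave whole numbers, with the offset chosen from the same values, only for models of the nameless block alone in their span, fitted where the span was 150 to 1500 bp and the product under 60; values are rounded to whole fragments in counts and medians. This was added after the data were seen. Exact Poisson intervals are at 95%.

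Named models were the 8 highest, 3 longest and 3 lowest per library, the 3 highest with no model within 10 kb, the 8 highest within 10 kb of a named model, the 3 longest runs and models beside listed genes, of which a selection is given; the highest models of the first and second blocks and those with most fragments were chosen after values were seen. Some marker genes are not reported here. The models, gene lists and measures were chosen with earlier results of these data known. No genome of this assembly was used, so no sequence is given.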

Additional observations from a re-analysis of the deposited data

How the results depend on the processing

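Of 91 recomputed values, 62 stayed close to the reported ones and 29 moved. None was a signed difference, but some orders of the libraries turned, 1 of them as given with the median FPKM. Within 10 kb of a named model lay 61.7% of Holstein and 64.0% of Jersey models, but 65.9% and 64.8% in the nameless block. The share of neighbours counted as higher was 1.23% in Holstein and 1.21% in Jersey, but 0% and 0.405% with a pseudocount of 10. That order also turned within 1 kb and with each neighbour counted once. No paired analysis was possible because each breed is 1 library, and for the same reason no replicate could be left out. Leaving out unplaced sequence changed nothing, since the table holds none. The counts of models per library depend on which libraries are compared: without the Jersey library Holstein had 620 models, and without the Holstein library Jersey had 742. With at least 20 recovered fragments, in the nameless block and alone in the span, the counts were 12 in the Holstein library, 20 in Jersey and 155 in Cholistani. Rescaled to an FPKM sum of 1000000 per library, median FPKM became 2.82, 2.50 and 1.82, so that Cholistani went from highest to lowest; for spans of at least 300 bp it was 15.2, 14.1 and 15.8. Median spans were 626.5, 612 and 781.5 bp for models of at least 10 FPKM, and 622.5 bp for Jersey models alone in their span.

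The share near a named model was 11.7%, 14.5% and 11.0% within 1 kb and 84.1%, 84.2% and 81.6% within 50 kb. The share of neighbours counted as higher was 0% in Holstein with a pseudocount of 10, within 1 kb, and for models of at least 20 fragments; in Jersey it was 0.405% with a pseudocount of 10 and 0% for models of at least 20 fragments. In Cholistani it was 6.53% after rescaling to the mean FPKM sum and 18.8% for models of at least 20 fragments. Within 1 kb it was 5.95%, near the 5.76% of all named models, which the share within 10 kb had exceeded. The cause of these shifts was not tested beyond the change of window, scale or models itself. Fragments were recovered for models of the nameless block alone in their span only, where the medians were 12, 12 and 13. A listed 0 may stand for absence or for a few fragments, and which of these holds was not tested.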

Other observations

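Beyond the listed genes, the neighbours of Cholistani-only models that were at least 2-fold higher in Cholistani included regulators of signalling and transcription. These genes were picked after their values were seen and are given as a description. BCL3, a regulator of NF-kB, had 291 FPKM in the Holstein library, 295 in Jersey and 1279 in Cholistani, with a Cholistani-only model 1368 bp away. SOCS3, a feedback inhibitor of cytokine signalling, had 116, 128 and 298 FPKM, with a model 1203 bp away. RORA, a nuclear receptor gene, had 52.4, 45.3 and 137 FPKM, with 2 models, the nearest 188 bp away. DUSP4, a phosphatase of MAP kinases like DUSP2, was listed at 0 in both taurine libraries and at 37.3 FPKM in Cholistani, with a model of 40.3 FPKM 2895 bp away. PTMS, which encodes parathymosin, had 2224, 2645 and 15910 FPKM, with a model of 85.9 FPKM 4210 bp away. Of the 42 genes counted in this way, 6 were listed at 0 in both taurine libraries, with no share over other genes to set beside it.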
